A study of Mus musculus with 24 samples.

Results

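Raet1d and Raet1e encode RAE-1 proteins, MHC class I-like molecules that are held to the cell surface by a glycosylphosphatidylinositol (GPI) anchor and serve as ligands of the activating receptor NKG2D. Both genes were taken by name from the gene tables of hepatocytes of old mice, 2 of 55421 genes. They were chosen by their read counts, which earlier results of these data had shown to be higher on a high-fat diet than on a normal diet. That diet difference is therefore given as a description, with no test. Both passed the filter on low counts and were among the 13847 genes tested.

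The libraries came from hepatocytes that were isolated by a 2-step perfusion from the livers of male C57BL/6J mice, and polyA RNA was sequenced. ND+veh mice (n = 8) received vehicle and a normal diet throughout. HFD+veh mice (n = 7) received vehicle from 4 months of age and, once 18 months old, spent 9 weeks on a diet with 60% of its calories from fat. HFD+eRapa mice (n = 9) spent the same 9 weeks on that diet but had received encapsulated rapamycin (42 ppm), an inhibitor of the kinase mTOR, since 4 months of age. All libraries carried the same batch label, and no group combined rapamycin with a normal diet among the libraries analysed here.

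NKG2D, encoded by Klrk1, is carried by natural killer (NK) cells and by subsets of T cells, and it signals through the adaptors DAP10 (Hcst) and DAP12 (Tyrobp). Its ligands are scarce on most healthy adult cells and are known to appear on infected, transformed or stressed cells, where they can trigger killing. In the mouse they comprise the RAE-1 family, the H60 proteins and MULT-1 (Ulbp1).

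Both genes lie on the plus strand of chromosome 10 (GRCm38), Raet1d at chr10:22360552-22374139 and Raet1e at chr10:22158569-22374139, and both are annotated as protein coding. The coding sequences of Raet1d (750 bases) and Raet1e (756 bases) were identical at 713 of 762 aligned columns (93.6%), with 31 mismatches and 18 gap columns. A final exon of 363 bases, chr10:22373777-22374139, is annotated to both genes and makes up 25.2% of the exonic bases of Raet1d and 16.8% of those of Raet1e. Of all runs of 50 letters in their transcripts, 55.8% of those of Raet1d and 40.3% of those of Raet1e also occurred in the other gene, and for runs of 100 letters these shares were 35.7% and 24.99%. Reads from these stretches cannot be given to a single member, and how the counting treated them is not given in the sources used here. The counts of the members are therefore uncertain relative to each other, and Raet1e in addition shares 133 exonic bases with its neighbour H60b.

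The resemblance extends to the bases before RefSeq transcription starts. Both windows printed below lie within the gene spans given above, not upstream of them. The RefSeq table (GRCm38.p6) holds 1 transcription start of Raet1d and 2 of Raet1e, and the 250 bases before the Raet1d start (chr10:22361644-22361893, plus strand) were identical at 245 of 248 aligned positions (98.8%) to those before the second Raet1e start (chr10:22173247-22173496, plus strand). These windows are shown because the members rose and fell together across animals. Whether the windows have a part in that was not tested, and the members also share exonic bases and reads. Capitals mark the 3 substitutions, C126T, G178C and A193C, which are counted from 1 at the first base of the Raet1d window and give the Raet1d base first.
Raet1d: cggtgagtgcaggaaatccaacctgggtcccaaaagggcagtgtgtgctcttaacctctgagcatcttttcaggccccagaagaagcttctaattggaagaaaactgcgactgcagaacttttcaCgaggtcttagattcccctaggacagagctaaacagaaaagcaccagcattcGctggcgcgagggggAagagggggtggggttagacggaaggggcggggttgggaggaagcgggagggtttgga
Raet1e: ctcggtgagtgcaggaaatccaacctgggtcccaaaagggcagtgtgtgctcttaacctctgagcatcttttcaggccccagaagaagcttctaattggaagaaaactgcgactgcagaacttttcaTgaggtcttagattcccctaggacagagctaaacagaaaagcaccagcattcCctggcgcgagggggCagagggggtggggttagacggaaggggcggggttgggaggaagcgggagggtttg
The window before the other Raet1e start (chr10:22158319-22158568, plus strand) did not align with either along its length. The GC box GGGCGG was found, on either strand, 1 time in each of the printed windows and 2 times in the third, and 32.7% of 32851 windows of the same length held it. The printed windows each held 1 CCAAT box (CCAAT, in 33.8% of windows). TATAAA (12.4% of windows), the AP-1 site TGANTCA (6.75%), the interferon response core GAAANNGAA (7.13%), the E box CACGTG (6.02%), the nuclear receptor half-site AGGTCA (14.0%) and the E2F core TTCCCGC (3.82%) were not among the letters of any of these windows. No motif searched contains another, and a match describes letters, not binding.

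Library totals ranged from 17739252 to 25945134 counts over genes. Levels are given as CPM, the counts scaled to a common library size of 1e6, after TMM scaling in edgeR, and, where the genes are compared with each other, as FPKM, which is per length. The label of hepatocytes was checked against 8 marker genes, of which 7 were in the table. Their summed level ranged from 49893 to 163684 CPM, with albumin the most abundant. Macrophage markers (15 genes) summed to 72.2 to 1777 CPM in ND+veh (median 346), 358 to 8034 in HFD+veh (median 3744) and 65.6 to 1513 in HFD+eRapa (median 333), so the share of RNA from such cells was uneven between libraries. NK and T cell markers (15 genes) summed to 0.170 to 3.41 CPM in ND+veh, 0.365 to 85.6 CPM in HFD+veh and 0 to 3.46 CPM in HFD+eRapa. ND+veh replicate 4 and HFD+veh replicate 6 stood apart from their groups in earlier results of these data. In bulk libraries fewer cells of a type and less RNA per cell cannot be told apart.

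Raet1d was low in every ND+veh library, with 11 to 190 counts. Its level was 0.624, 3.20, 1.35, 5.98, 2.93, 4.60, 3.91 and 1.52 CPM in ND+veh replicates 1 to 8. In HFD+veh replicates 1 to 7 it was 25.2, 25.2, 32.0, 35.9, 31.2, 30.3 and 28.4 CPM. The lowest HFD+veh library thus stood above the highest ND+veh library, and the spread in HFD+veh was narrow. In HFD+eRapa replicates 1 to 9 Raet1d was at 38.8, 32.7, 20.9, 32.2, 13.5, 15.02, 30.6, 12.0 and 13.9 CPM, again with every library above the whole ND+veh group. The HFD+eRapa animals spread from below the HFD+veh range (5 libraries) to within or above it (4 libraries).

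Raet1e followed the same pattern at a lower level. It was at 0.113, 0.495, 0.419, 1.42, 0.542, 0.471, 0.528 and 0.332 CPM in ND+veh replicates 1 to 8, which rest on 2 to 45 counts. In HFD+veh replicates 1 to 7 it was at 5.73, 3.70, 8.91, 13.0, 8.69, 6.07 and 6.47 CPM. In HFD+eRapa replicates 1 to 9 it was at 17.6, 11.8, 7.29, 14.6, 5.79, 5.40, 12.1, 4.76 and 4.89 CPM. Both groups on the high-fat diet lay entirely above ND+veh, and the highest Raet1e level of all libraries was in HFD+eRapa replicate 1, which also had the highest Raet1d level.

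**Figure D1:**
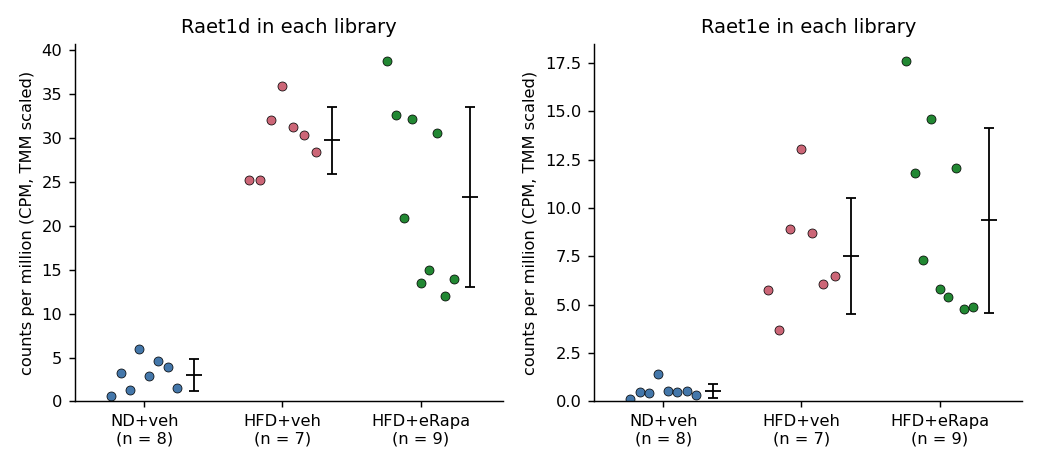
Levels of Raet1d (left) and Raet1e (right) in CPM in each library (points, replicates in order from left to right) of ND+veh, HFD+veh and HFD+eRapa, with the mean and SD of each group beside them. All HFD+veh libraries (Raet1d 25.2 to 35.9 CPM) and all HFD+eRapa libraries (12.0 to 38.8 CPM) sit above the ND+veh libraries (0.624 to 5.98 CPM).

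The contrast that chose the members, HFD+veh against ND+veh, gave these sizes. The mean Raet1d level of 29.8 ± 3.83 CPM in HFD+veh (SD, n = 7) stood against 3.01 ± 1.81 CPM (SD, n = 8) in ND+veh, 3.29 apart on the log2 scale (SE 0.355) and 9.79-fold. For Raet1e the mean was 7.51 ± 3.02 CPM in HFD+veh (SD, n = 7) against 0.539 ± 0.381 CPM (SD, n = 8) in ND+veh, 3.75 apart on the log2 scale (SE 0.398) and 13.4-fold. Across all genes tested, 16.0% were higher and 9.86% lower in this contrast at an adjusted p under 0.05 (edgeR), and the HFD+veh libraries lay wholly above the ND+veh libraries for 1.21% of them. Since the rise chose both genes, nothing is read from their place among these.

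Whether rapamycin lowered the ligands on the high-fat diet was asked by HFD+eRapa against HFD+veh. Neither gene passed the test, in a contrast in which 10.9% of all genes were higher and 21.1% lower. Raet1d averaged 23.3 ± 10.3 CPM in HFD+eRapa (SD, n = 9), and its log2 fold change against HFD+veh was -0.35 (SE 0.316, edgeR quasi-likelihood test with Benjamini-Hochberg adjustment, adjusted p = 0.415). The approximate 95% interval of this difference ran from -0.97 to 0.27, or from 0.510 to 1.20 times the HFD+veh level. Raet1e averaged 9.35 ± 4.77 CPM in HFD+eRapa (SD, n = 9), 0.32 apart from HFD+veh on the log2 scale (SE 0.345, edgeR adjusted p = 0.512) and an interval from -0.36 to 0.99, or from 0.780 to 1.99 times. Both intervals include 0 and are wide, so the level with rapamycin could not be placed above or below that without it. The HFD+veh libraries of this contrast are those on which the members were chosen.

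With a macrophage marker score (the mean z-score of the 15 genes) entered as a covariate, these values moved. The log2 fold change of Raet1d turned to 0.20 (edgeR adjusted p = 0.729), and that of Raet1e rose to 1.07 and passed the test (edgeR adjusted p = 0.0252). The part of other cells in these results was not tested beyond this fit. In the contrast that chose the members, 3 HFD+veh libraries (replicates 1, 2 and 7) had scores of -0.436, -0.358 and 0.670, within the ND+veh range of -1.33 to 0.859, with Raet1d at 25.2, 25.2 and 28.4 CPM, a description from which nothing is read since separation from ND+veh chose the genes.

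HFD+eRapa against ND+veh joins 9 libraries outside the contrast that chose the members with the 8 ND+veh libraries of that contrast. Low ND+veh levels were part of the choice, so the p-values and intervals below are not independent of it. Both genes were higher in HFD+eRapa, among the 6.93% of all genes that were higher in this contrast, while 6.56% were lower. Raet1d was 7.66-fold higher (interval 4.82 to 12.2, log2 fold change 2.94, SE 0.341, edgeR adjusted p = 4.30e-06). Raet1e was 16.7-fold higher (interval 9.80 to 28.6, log2 fold change 4.06, SE 0.394, edgeR adjusted p = 3.48e-07). For each member all 9 HFD+eRapa libraries lay above all 8 ND+veh libraries, which held for 2.14% of the genes tested.

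On the per-length scale the same order was seen, and Raet1d exceeded Raet1e in all 24 libraries. The FPKM of Raet1d was 2.93 ± 2.07 (SD, n = 8) in ND+veh, 28.7 ± 5.80 (SD, n = 7) in HFD+veh and 21.0 ± 9.17 (SD, n = 9) in HFD+eRapa. The FPKM of Raet1e was 0.673 ± 0.482 in ND+veh, 8.64 ± 3.97 in HFD+veh and 9.05 ± 4.42 in HFD+eRapa (SD, same n). HFD+eRapa differed from ND+veh by 2.98 for Raet1d and 3.65 for Raet1e on the log2(FPKM + 0.1) scale. For each, p was 4.11e-05, the smallest that the two-sided exact permutation test can give for 9 against 8 libraries. After adjustment over 6 such tests it was 0.000123. The members were chosen on these ND+veh libraries too, so these p-values are not independent of the choice. Against HFD+veh, Raet1d differed by -0.55 on that scale (exact permutation p = 0.0592, adjusted 0.0710) and Raet1e by 0.03 (exact permutation p = 0.932, adjusted 0.932). The first of these rests on single animals, since the exact permutation p ranged from 0.0236 to 0.113 as each library was left out, and it fell under 0.05 without HFD+eRapa replicate 1, 4 or 7 (p = 0.0236, 0.0384 and 0.0368) or HFD+veh replicate 1 (p = 0.0474).

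The balance between the members did differ with rapamycin. Measured as log2 CPM of Raet1d minus log2 CPM of Raet1e, it ran from 1.49 to 3.05 in ND+veh (median 2.13), from 1.46 to 2.74 in HFD+veh (median 2.12) and from 1.13 to 1.51 in HFD+eRapa (median 1.34). Raw counts of Raet1d were 2.20 to 2.87 times those of Raet1e in HFD+eRapa, against 2.75 to 6.82 times in HFD+veh and 3.22 to 9.78 times in ND+veh. HFD+eRapa libraries thus sat at the low end, with a narrow spread (SD 0.151, against 0.407 in HFD+veh and 0.512 in ND+veh), and touched the other groups only at their edge. The mean of 1.34 ± 0.151 in HFD+eRapa (SD, n = 9) was lower than that of 2.06 ± 0.407 in HFD+veh (SD, n = 7) by a two-sided exact permutation test (difference -0.72, p = 0.000437, adjusted over 6 tests 0.000656). It was also lower than the ND+veh mean of 2.21 ± 0.512 (SD, n = 8; difference -0.87, exact permutation p = 0.000123, adjusted 0.000247). In FPKM, Raet1d exceeded Raet1e by a median of 2.29 times in HFD+eRapa, 3.56 times in HFD+veh and 4.40 times in ND+veh. The groups overlapped more widely on this scale, with ranges of 2.05 to 3.09, 2.34 to 5.13 and 2.23 to 6.79 times in the same order. The share of reads that the counting could not assign to 1 member was not measured here, and its part in this difference was not tested.

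**Figure D2:**
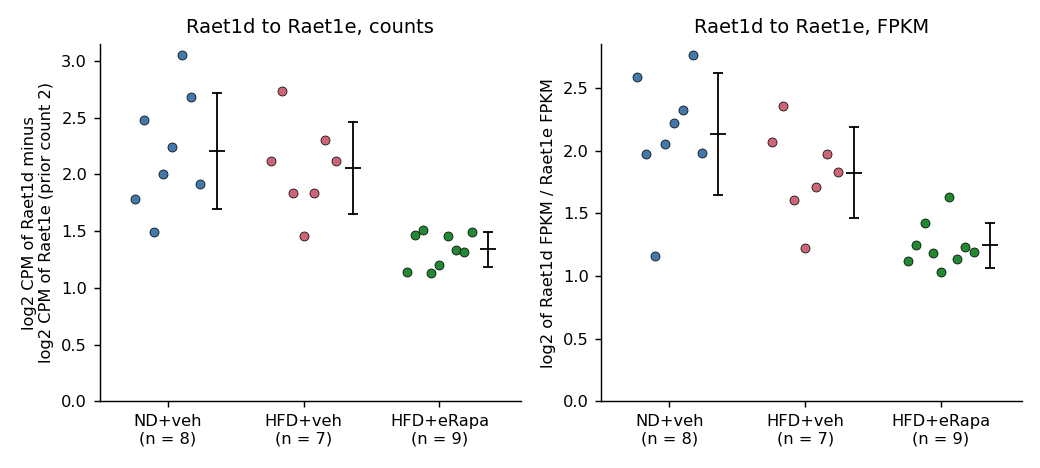
Balance between the members in each library (points) of the 3 groups, with group mean and SD, as the difference of log2 CPM (left) and as the log2 of the FPKM ratio (right). The HFD+eRapa libraries lie between 1.13 and 1.51 on the left, below most libraries of the other groups (medians 2.12 and 2.13).

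Within each group the members tracked each other from animal to animal. Over log2 CPM values, Pearson's r between Raet1d and Raet1e was 0.875 in ND+veh (n = 8, exact permutation p = 0.00171, adjusted over 9 relations 0.00770; Spearman's rho 0.762, p = 0.0368, adjusted 0.0664). It was 0.917 in HFD+veh (n = 7, exact permutation p = 0.00575, adjusted 0.0144; rho 0.964, p = 0.00278, adjusted 0.0125). In HFD+eRapa it was 0.981 (n = 9, exact permutation p = 0.000105, adjusted 0.000942; rho 0.900, p = 0.00203, adjusted 0.0125). Without the 2 libraries farthest from the median of Raet1d, r was 0.774, 0.929 and 0.973. The members share exonic bases and reads, which such values include.

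Levels of the members were also set against the macrophage marker score within groups, because that score differed between them (median -0.238 in ND+veh, 1.37 in HFD+veh and -0.341 in HFD+eRapa). In HFD+eRapa, Raet1d rose with the score (r = 0.881, n = 9, exact permutation p = 0.00639, adjusted over 9 relations 0.0144; rho 0.817, p = 0.0108, adjusted 0.0323), with r = 0.908 without the 2 farthest libraries. Raet1e did so as well (r = 0.840, n = 9, exact permutation p = 0.0120, adjusted 0.0180; rho 0.717, p = 0.0369, adjusted 0.0664), with r = 0.862 without the 2 farthest. HFD+eRapa replicates 5, 6, 8 and 9, the lowest in both members, had scores of -1.27, -1.74, -1.26 and -0.975, the lowest of that group. In HFD+veh the relation for Raet1d (r = 0.880, n = 7, exact permutation p = 0.00873, adjusted 0.0157; rho 0.714, p = 0.0881, adjusted 0.132) rested on 2 libraries, without which r was 0.496. For Raet1e in HFD+veh r was 0.709 (n = 7, exact permutation p = 0.0786, adjusted 0.101; rho 0.571, p = 0.200, adjusted 0.225), and 0.208 without 2 libraries. In ND+veh neither passed the test, with r = 0.542 for Raet1d (n = 8, exact permutation p = 0.166, adjusted 0.187; rho 0.595, p = 0.132, adjusted 0.170; 0.798 without the 2 farthest libraries) and 0.477 for Raet1e (n = 8, exact permutation p = 0.221, adjusted 0.221; rho 0.238, p = 0.582, adjusted 0.582; 0.462 without the 2 farthest).

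**Figure D3:**
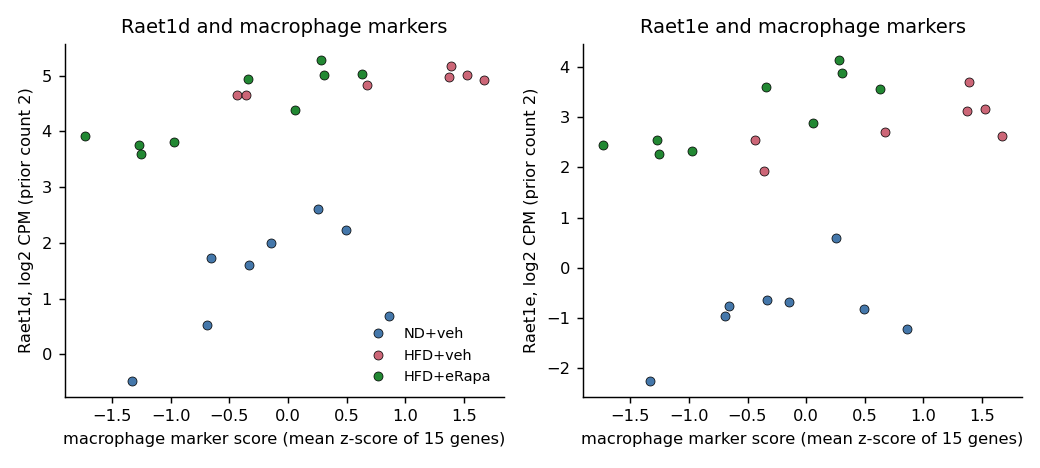
Log2 CPM of Raet1d (left) and Raet1e (right) against the macrophage marker score (mean z-score over 15 genes) in each library, coloured by group. Scores run from -1.33 to 0.859 in ND+veh, from -0.436 to 1.68 in HFD+veh and from -1.74 to 0.628 in HFD+eRapa, and within HFD+eRapa both members are higher where the score is higher.

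Of the other NKG2D ligands in the table only Ulbp1 passed the filter. Ulbp1 had 0 to 2.13 CPM in ND+veh (median 0.324), 0.208 to 13.3 CPM in HFD+veh (median 2.82) and 0 to 1.44 CPM in HFD+eRapa (median 0.343). The groups overlapped, and a single library, HFD+veh replicate 6, held 316 of the 553 counts of its group. Ulbp1 rose in HFD+veh relative to ND+veh (log2 fold change 2.601, SE 0.847, edgeR adjusted p = 0.0281) and fell in HFD+eRapa relative to HFD+veh (-3.02, SE 0.834, edgeR adjusted p = 0.00857), but without HFD+veh replicate 6 these were 1.59 (edgeR adjusted p = 0.168) and -2.001 (edgeR adjusted p = 0.0642), and the first call was also lost without ND+veh replicate 1, 2, 3 or 5. Against ND+veh its log2 fold change in HFD+eRapa was -0.42 (SE 0.823, edgeR adjusted p = 0.812). H60b had at most 2 counts in any library and H60c had 0 in all 24, and neither was tested. Of 9 NKG2D ligands searched by name, 5 were in the gene table, and Raet1a, Raet1b, Raet1c and H60a were not among them. The difference between Ulbp1 and the Raet1 genes in their response was not tested.

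Receptor and adaptor transcripts, which mark lymphoid and myeloid cells rather than hepatocytes, were likewise spread widely in HFD+veh. Klrk1 had 0.0567 to 2.605 CPM in ND+veh (median 0.401), 0.352 to 34.3 CPM in HFD+veh (median 3.24) and 0.0512 to 3.29 CPM in HFD+eRapa (median 0.169). It rose in HFD+veh relative to ND+veh (log2 fold change 3.49, SE 0.942, edgeR adjusted p = 0.0119, but 2.48 and adjusted p = 0.0592 without HFD+veh replicate 6) and fell in HFD+eRapa relative to HFD+veh (-3.57, SE 0.909, edgeR adjusted p = 0.00549). Tyrobp ranged from 0.283 to 22.9 CPM in ND+veh, from 2.24 to 108 CPM in HFD+veh and from 0.169 to 16.5 CPM in HFD+eRapa. Its log2 fold changes were 2.81 (SE 0.879, edgeR adjusted p = 0.0240) in HFD+veh against ND+veh, a call lost without HFD+veh replicate 3 or 6, and -3.01 (SE 0.850, edgeR adjusted p = 0.00998) in HFD+eRapa against HFD+veh. HFD+eRapa against ND+veh gave -0.09 for Klrk1 (edgeR adjusted p = 0.971) and -0.20 for Tyrobp (edgeR adjusted p = 0.916). The rises of Ulbp1, Klrk1 and Tyrobp in HFD+veh against ND+veh also lost their calls in limma (adjusted p = 0.0712, 0.0652 and 0.0583). With the macrophage score as a covariate they were 0.15, 0.51 and 0.17 on the log2 scale (edgeR adjusted p = 0.905, 0.524 and 0.603), and the change of Klrk1 in HFD+eRapa against HFD+veh was -0.27 (edgeR adjusted p = 0.781). Tyrobp is itself a transcript of myeloid cells, so little can be read from its value under that covariate. Its highest and lowest log2 CPM, 6.75 and -1.92, were in the libraries with the highest and lowest score. Hcst, with 0 to 67 counts in a library, was under the filter.

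**Figure D4:**
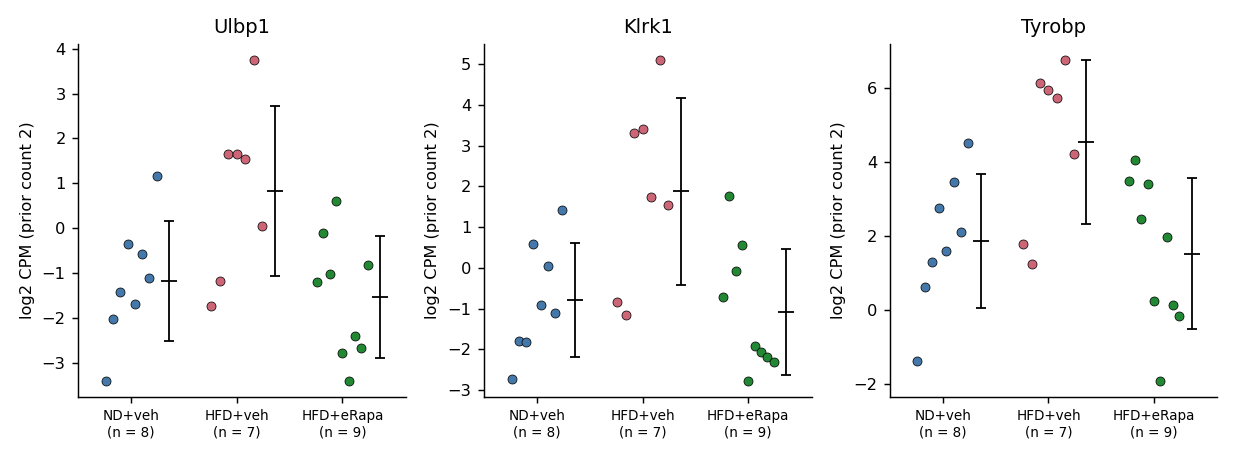
Log2 CPM (prior count 2) of Ulbp1, Klrk1 and Tyrobp in each library (points) of the 3 groups, with group mean and SD. The groups overlap for each gene, and HFD+veh replicate 6 is the highest library in each panel.

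**Figure D5:**
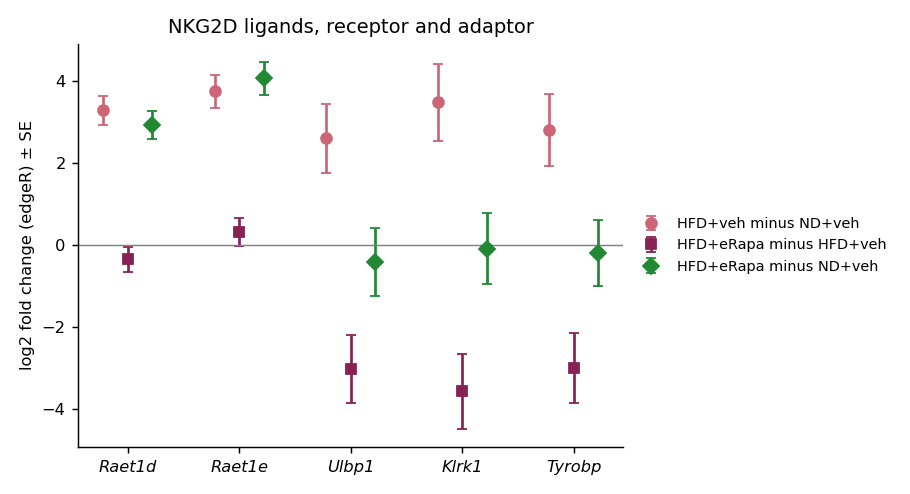
Log2 fold changes from edgeR with their SE for the NKG2D ligands, receptor and adaptor that were tested, in the 3 contrasts. HFD+eRapa minus HFD+veh is -0.35 for Raet1d and 0.32 for Raet1e, neither of them called and both with wide intervals. It lies between -3.57 and -3.01 for Ulbp1, Klrk1 and Tyrobp. HFD+eRapa minus ND+veh is above 2 for the Raet1 genes alone among these 5.

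Macrophage markers moved with these transcripts. Of 15 tested, 7 rose in HFD+veh against ND+veh (median log2 fold change 2.30, over all genes 0.05), 13 fell in HFD+eRapa against HFD+veh (median -2.73, over all genes -0.04), and the median in HFD+eRapa against ND+veh was -0.41 (over all genes -0.03). The 7 rises depended on the fit, with 2 without HFD+veh replicate 6, 1 in limma, 11 in DESeq2 and 14 when replicate numbers were blocked. The 13 falls became 9 without HFD+veh replicate 6. For comparison, 16.0% of all genes tested were higher in HFD+veh against ND+veh and 21.1% were lower in HFD+eRapa against HFD+veh. Of the NK and T cell markers only Trbc2 passed the filter. Among other cells, the numbers that rose in HFD+veh against ND+veh were 2 of 3 neutrophil, 1 of 1 B cell, 1 of 6 endothelial, 2 of 6 stellate cell and 3 of 3 cholangiocyte markers and 2 of 6 proliferation genes, and the numbers that fell in HFD+eRapa against HFD+veh were 2, 1, 6, 6, 1 and 1. Without HFD+veh replicate 6 the rises that edgeR still called were those of 1 neutrophil, 1 stellate cell and 3 cholangiocyte markers, while the falls became 1 for neutrophil and 2 for endothelial markers. Of 7 hepatocyte markers, 1 fell in the first contrast, a call lost without HFD+veh replicate 6, and 1 rose in the second. In HFD+eRapa against ND+veh 1 of 3 cholangiocyte markers was higher (median log2 fold change 1.56), a call lost in limma. There 3 of 6 stellate cell markers were lower (median -1.48). No other marker and no proliferation gene was called there, with a median of 1.41 for the 3 neutrophil markers. Over all genes tested, 6.93% were higher and 6.56% lower in that contrast.

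Other genes linked to NK or NKT cells (9 genes, not all of them ligands of NK cell receptors) were also examined. They showed 3 rises and 1 fall in HFD+veh against ND+veh, with a median log2 fold change of 0.37. Cd48, the leukocyte ligand of 2B4, was up 3.57 on the log2 scale (edgeR adjusted p = 0.0132, but 0.0743 without HFD+veh replicate 6). Tnfsf10, which encodes the death ligand TRAIL, rose by 1.85 (edgeR adjusted p = 0.000482). Nectin2, a ligand of DNAM-1, fell by 0.65 on the log2 scale (edgeR adjusted p = 0.0202). In HFD+eRapa against HFD+veh 1 gene of this list rose and 5 fell (median -0.57), 4 without HFD+veh replicate 6. Cd48 fell by 3.72 (edgeR adjusted p = 0.00561) and Tnfsf10 by 1.89 (edgeR adjusted p = 0.000199), whereas Nectin2 rose by 0.89 (edgeR adjusted p = 0.00199). Only Cd1d1, which presents lipids to NKT cells, was called in HFD+eRapa against ND+veh, at 0.42 on the log2 scale (edgeR adjusted p = 0.00709). The shares over all genes tested were 16.0% higher and 9.86% lower in HFD+veh against ND+veh. They were 10.9% and 21.1% in HFD+eRapa against HFD+veh, and 6.93% and 6.56% in HFD+eRapa against ND+veh.

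Of 15 genes that have been reported to act upstream of NKG2D ligand transcription, 4 rose in HFD+veh against ND+veh, and this became 1 without HFD+veh replicate 6. Over all genes tested, 16.0% rose in that contrast and 21.1% fell in HFD+eRapa against HFD+veh. Nothing is read from the counts of this list. Chek2, a checkpoint kinase of the DNA damage response, was up 1.35 on the log2 scale (edgeR adjusted p = 0.00140). Atr, an apical kinase of the same response, rose by 0.55 (edgeR adjusted p = 0.0206, but 0.112 without HFD+veh replicate 6, and lost also without ND+veh replicate 1), and by 0.62 in HFD+eRapa against ND+veh (edgeR adjusted p = 0.0101). No other gene of this list was called higher in HFD+eRapa against ND+veh. In HFD+eRapa against HFD+veh 4 fell, with the largest falls in Tmem173, the DNA sensing adaptor STING (-2.46, edgeR adjusted p = 0.0128), and E2f2, a cell cycle transcription factor (-1.26, edgeR adjusted p = 0.00245). E2f2 was also lower than in ND+veh (-1.56, edgeR adjusted p = 0.000425). Tmem173 lost its call without HFD+veh replicate 6.

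Attachment of a GPI anchor, which RAE-1 proteins need to reach the surface, was followed through 8 genes. In HFD+veh against ND+veh 2 rose, Pgap2, a factor of anchor remodelling (log2 fold change 0.75, edgeR adjusted p = 0.000410), and Pigk, the catalytic subunit of the transamidase (0.44, edgeR adjusted p = 0.00181). Gpaa1, another transamidase subunit, fell by 0.45 on the log2 scale (edgeR adjusted p = 0.0186). In HFD+eRapa against HFD+veh, Pigu (-0.42, edgeR adjusted p = 0.0225) and Pgap2 (-0.33, edgeR adjusted p = 0.0435) fell, and neither call held without HFD+veh replicate 4 or 6, that of Pgap2 being lost in most of the fits without 1 library. Pgap2 remained higher than in ND+veh (0.42, edgeR adjusted p = 0.0204). Of all genes tested, 16.0% rose and 9.86% fell in HFD+veh against ND+veh, and 21.1% fell in HFD+eRapa against HFD+veh. The counts of this list are not read as a result about it.

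Proteases that can release NKG2D ligands from the surface (6 genes) gave 2 rises in HFD+veh against ND+veh, Adam10 (log2 fold change 1.40, edgeR adjusted p = 0.00490) and Adam17 (1.18, edgeR adjusted p = 0.0104, but 0.0583 without HFD+veh replicate 6). With the macrophage score as a covariate they were 0.59 (edgeR adjusted p = 0.184) and 0.41 (edgeR adjusted p = 0.360), neither of them called. In HFD+eRapa against HFD+veh 3 fell, among them Mmp2 (-4.16, edgeR adjusted p = 0.000199) and Adam10 (-1.30, edgeR adjusted p = 0.00398). In HFD+eRapa against ND+veh 3 fell, with Mmp2 (-3.07, edgeR adjusted p = 0.00281) and Mmp14 (-0.63, edgeR adjusted p = 0.0155) the largest. The median of the list was 1.13, -1.13 and -0.32 in the 3 contrasts. Among all genes tested, 16.0% rose in the first contrast, 21.1% fell in the second and 6.56% fell in the third.

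The genes around the members were examined as well. Of 34 annotated genes within 500 kb, 4 other than the members passed the filter, and their edgeR adjusted p in HFD+veh against ND+veh ran from 0.114 to 0.775. E030030I06Rik (chr10:22113050-22149270) had a log2 fold change of -0.44 there, Tbpl1 (chr10:22703879-22731938) 0.17, Sgk1 (chr10:21882184-21999903) 0.34 and Tcf21 (chr10:22817281-22820174) -0.21. The genes under the filter were not tested. Those with the most HFD+veh counts, C920009B18Rik and Gm26740, lie within the Raet1e span. Their summed counts were 29 and 12 in ND+veh, 229 and 124 in HFD+veh, and 25 and 16 in HFD+eRapa. A single HFD+veh library held up to 112 and 56 of these. In HFD+eRapa against HFD+veh, Sgk1, a kinase that acts downstream of mTORC2, was lower (-1.63, edgeR adjusted p = 0.00286), as were Tcf21 (-1.60, edgeR adjusted p = 0.0178, a call lost without HFD+veh replicate 4) and Tbpl1 (-0.67, edgeR adjusted p = 0.00842), whereas E030030I06Rik was higher (0.74, edgeR adjusted p = 0.00839).

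The gene whose log2 CPM was most like that of each member over the 24 libraries was the other member (Pearson's r = 0.965, and 0.861 after group means were removed). These likenesses are descriptions that carry the group differences, over libraries that share depth and cell makeup. For Raet1d the next were 9130409I23Rik (r = 0.896), Mettl15 (0.893), Lcn2 (0.891), Psd4 (0.889), Stap1 (0.883), Enpp2 (0.882) and Ank2 (0.880). For Raet1e they were Themis (0.939), Stap1 (0.914), Lcn2 (0.908), Ank2 (0.907), Micu2 (0.903), Mettl15 (0.902) and Ermp1 (0.897). Once group means were removed, r ranged from 0.237 for Stap1 to 0.736 for Psd4 in the first list and from 0.345 for Stap1 to 0.753 for Lcn2 in the second. Themis, known as a gene of T cell development, averaged 0.258 CPM in ND+veh, 5.53 in HFD+veh and 9.73 in HFD+eRapa. Cd3e, a T cell marker that did not pass the filter, averaged 0.0662, 0.984 and 0.0703 CPM. The cell source of Themis was not tested. Lcn2, which encodes the iron-sequestering protein lipocalin 2, averaged 6.93, 62.0 and 48.3 CPM in the same order.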

How the data were processed

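The authors aligned reads to mm10 (Gencode vM23) with STAR, filtered them with SAMtools 1.1.0, and deposited raw gene counts from HTSeq 0.11.2 and FPKM values from Cufflinks. The strand setting of the counting is not given in the sources used here, so overlapping genes are uncertain. From the deposited counts (17739252 to 25945134 per library), edgeR 4.0.16 in R 4.3.3 tested genes kept by filterByExpr (TMM scaling, robust quasi-likelihood fit over all 24 libraries, Benjamini-Hochberg adjustment, threshold 0.05). The step was tested on simulated data. DESeq2 1.42.0 and limma 3.58.1 were alternatives. FPKM (pseudocount 0.1) and the log2 CPM difference between the members (prior count 2) were compared by exact permutation tests of the absolute difference, with adjustment by SciPy 1.17.1 in Python 3.11.15. Groups came from the labels. Replicates are separate libraries, and p-values set the group differences against the spread between libraries. The members and gene lists were chosen with earlier results of these data known. Named were the members, all NKG2D genes, tested genes within 500 kb, the called genes with the 2 largest rises and falls of each other list (cell type and proliferation lists by counts) and the 8 genes most like each member. Alternatives were other tools, size factors, filters, pseudocounts, sample sets, a replicate block, a macrophage score covariate and leaving out each library. Promoter windows are from RefSeq (GRCm38.p6), and transcripts, exons and positions from Gencode vM21 (GRCm38).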

Additional observations from a re-analysis of the deposited data

Results flagged for a closer look

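Dixon's criterion was applied to 24 sets of libraries: log2 CPM of Raet1d, Raet1e, Ulbp1, Klrk1 and Tyrobp, log2(FPKM + 0.1) of both members and their log2 ratio, each in the 3 groups. No library passed the critical value in any of them, where chance alone would give about 1 in 20.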

How the results depend on the processing

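The rise of both members in HFD+eRapa against ND+veh kept its direction and its call under all 8 alternatives and in all 17 fits that left out 1 library, with log2 fold changes of 2.78 to 3.18 for Raet1d and 3.90 to 4.48 for Raet1e over them. The ND+veh libraries of these fits are those on which the members were chosen. The lower balance of Raet1d to Raet1e in HFD+eRapa held under 4 alternatives and as each library was left out. It was -0.82 to -0.58 against HFD+veh and -1.04 to -0.66 against ND+veh. The macrophage score covariate was not tried on this balance. With the macrophage marker score as a covariate, the fold change in HFD+eRapa against HFD+veh turned to 0.20 for Raet1d, 0.11 for Tyrobp, 0.32 for Tmem173 and 0.0081 for Ulbp1, none of them called, and rose to 1.07 for Raet1e, which was then called. It also took away the calls of Cd48 and Nectin2 in both contrasts with HFD+veh, of Atr and Gpaa1 in HFD+veh against ND+veh, and of Chek2, Pgap2, Pigu, Adam10, Adam17 and the 4 neighbours in HFD+eRapa against HFD+veh, and limma did not call Cd48 in either or Tmem173 in the latter. That covariate also left 1202 genes called in HFD+veh against ND+veh and 842 in HFD+eRapa against HFD+veh, in place of 3584 and 4430. HFD+veh against ND+veh gave 2333 called genes with only its own libraries in the fit, 2106 to 4478 as each library was left out (2106 without HFD+veh replicate 6) and 2302 without ND+veh replicate 4 and HFD+veh replicate 6, a setting chosen after seeing the data. On the FPKM scale the difference between HFD+eRapa and HFD+veh was -0.66 to -0.44 for Raet1d and -0.10 to 0.20 for Raet1e as each library was left out. The labels do not say whether the replicate numbers pair the animals. Once group means were removed, same-numbered libraries correlated over 0.1 in 5 of 7, 2 of 7 and 2 of 8 pairs of the 3 contrasts. That check does not settle the question. With the number as a block, 305 genes were called in HFD+eRapa against HFD+veh, 3399 in HFD+veh against ND+veh and 1884 in HFD+eRapa against ND+veh, and no call of a member changed. The block also took away calls of other named genes in HFD+eRapa against HFD+veh, Klrk1, Tyrobp, Ulbp1 and Sgk1 among them. The split into higher and lower genes in HFD+veh against ND+veh, 2218 and 1366, was 1310 and 1342 by limma, 580 and 622 with the covariate and 1180 and 1122 without both named libraries. The cause of these changes was not tested. Counts of 2 to 45 limit the precision of Raet1e in ND+veh.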
